A study of Mus musculus with 2 samples.

Results

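LHX4 is a LIM homeodomain (LIM-HD) transcription factor, and the 10 genes described here are LHX4 itself, other members of its family and the cofactors of the same complexes. They were chosen by symbol from the 28692 genes of the count tables: *Lhx4*, *Lhx3*, *Lhx9* and *Isl2* (LIM-HD factors), *Lmo1*, *Lmo2*, *Lmo3* and *Lmo4* (LIM-only proteins), and *Ldb1* and *Ldb2* (LIM domain binding proteins). All 10 were listed in both libraries, and all 10 were among the 19657 genes with at least 1 count.

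A LIM-HD factor binds DNA through its homeodomain and binds cofactors through a pair of zinc-binding LIM domains. LDB1 and LDB2 bind those LIM domains and dimerize, which joins LIM-HD proteins into larger complexes. LMO proteins have LIM domains and no homeodomain, so they can occupy LDB proteins without binding DNA. In the nervous system the mix of LIM-HD, LMO and LDB proteins is known for its part in setting neuronal type, as with LHX3, LHX4 and the ISL proteins in motor neurons and V2a interneurons.

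Retinas came from E14.5 embryos of the strain Tg(Lhx4::EGFP)KN199Gsat/Mmucd, heterozygous for a bacterial artificial chromosome in which *Lhx4* sequences drive GFP. Embryos of 2 litters were pooled in 1 suspension, and live cells were sorted into a GFP+ and a GFP− gate, so both groups carry the transgene and share age, strain and embryos. Each gate gave 1 droplet library of 3′ transcript ends, in which each captured molecule is counted as 1 unique molecular identifier (UMI). The transgene keeps the start of the *Lhx4* coding sequence, and how far *Lhx4* UMIs come from it was not tested. GFP has no row in the tables.

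The GFP+ library had 3728 cells and 16010591 UMIs, and the GFP− library had 4445 cells and 46778924 UMIs. Cells with at least 250 and fewer than 3500 genes were kept, which left 3689 GFP+ cells (median 3894 UMIs) and 3389 GFP− cells (median 8848 UMIs). The limit removed 1.05% of GFP+ and 23.8% of GFP− cells. Of all cell barcodes, 20 were present in both libraries. A level is the sum of a gene's UMIs over a group of cells per 1000000 UMIs of those cells (CPM). Brackets after a level give its 95% exact Poisson interval and after a share its 95% Clopper-Pearson interval, and both cover counting error only. Levels of 3′ ends are not divided by transcript length, so they are compared between cells and not between genes. With 1 library per gate there were no replicates and no test was made, and the retinas and sorts behind another pair of libraries could differ by more.

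Cells were grouped by marker UMIs, none of them from the 10 genes. A class needed at least 3 UMIs over at least 2 of its markers. Cells meeting 2 or more of the cone, RGC, AC/HC, vascular or blood, macrophage, pigment epithelium, lens and mesenchyme rules (1 GFP+ and 47 GFP−) were set apart. They still count in the comparison of the gates. A cell meeting 1 of these rules took that class even if it also met a progenitor, neurogenic or *Otx2*/*Crx*/*Prdm1* rule. Remaining cells took *Otx2*/*Crx*/*Prdm1* first, then neurogenic-progenitor-like, then progenitor-like. No doublet caller was run, so doublets of a cone and a progenitor would stay cone-like. Of the kept GFP+ cells, 3603 (97.7%) were cone-like, by *Gngt2*, *Gnb3*, *Thrb*, *Rxrg*, *Pdc* and *Gnat2*. The kept GFP− cells held 1893 progenitor-like cells, 460 neurogenic-progenitor-like cells, 349 retinal ganglion cell (RGC)-like cells, 304 amacrine or horizontal cell (AC/HC)-like cells, 67 cone-like cells and 124 cells of no class. A further 136 GFP− and 40 GFP+ cells met the rule on *Otx2*, *Crx* and *Prdm1* and none for cone, RGC or AC/HC markers. Their leading genes included *Olig2* and *Neurog2*, which mark neurogenic progenitors, so they are called *Otx2*/*Crx*/*Prdm1* cells and given no cell type name. In cone-like GFP+ cells the summed level of the 6 cone markers was 4354 CPM, that of 5 RGC markers was 27.2 CPM and that of 4 AC/HC markers was 1.27 CPM. Over all kept GFP− cells the same sums were 31.4, 528 and 172 CPM. Rod markers (5 of 5 with UMIs) summed to 48.9 CPM in cone-like GFP+ and 4.69 CPM in GFP− cells, with *Nrl* (472 UMIs) and *Sag* (239) the most counted in the cones. Macrophage markers summed to 27.4 CPM in cone-like GFP+ and 11.8 CPM in GFP− cells. In the cones 408 of these 410 UMIs were *C1qa*, while *C1qb*, *Csf1r* and *Fcer1g* were at 0. The part of the rod markers in the gate differences was not tested.

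The genes lie apart in the mouse genome (GRCm38, GENCODE vM21), each protein coding. *Lhx4* is on chromosome 1 from 155698031 to 155751684 and *Lhx9* on the same chromosome from 138825186 to 138848577, both on the minus strand. *Lhx3* is on chromosome 2 from 26200212 to 26208289 on the minus strand, and *Isl2* on chromosome 9 from 55538672 to 55546180 on the plus strand. *Ldb1* is on chromosome 19 from 46031570 to 46045214 and *Ldb2* on chromosome 5 from 44472132 to 44799680, both on the minus strand. No 2 of the 10 genes shared a 30-base word in their annotated transcripts (45 pairs compared), so reads of the paralogs *Lhx3* and *Lhx4*, *Lmo1* and *Lmo3*, or *Ldb1* and *Ldb2* could be told apart. No other gene on the same strand overlapped their 3′ ends, while *Lhx3*, *Isl2*, *Lmo1*, *Lmo2*, *Lmo3*, *Ldb1* and *Ldb2* have an annotated gene on the other strand.

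The bases ahead of a RefSeq start of transcription are shown for *Lhx4*, *Lhx3* and *Isl2*. Each of these had a higher level in the cone-like groups than in the other classes of GFP− cells. They are also shown for *Lmo1*, the only gene of those with a window that matched a searched homeodomain motif. Each line gives bases 250 to 51 before a RefSeq start (GRCm38.p6), 5′ to 3′ on the gene's strand, and capitals mark the letters TAATTA, a core bound by many homeodomain proteins. The *Lhx4* line is chr1:155742078-155742277 (minus strand), the *Lhx3* line chr2:26208300-26208499 (minus), the *Isl2* line chr9:55540899-55541098 (plus) and the *Lmo1* line chr7:109175258-109175457 (minus).
Lhx4: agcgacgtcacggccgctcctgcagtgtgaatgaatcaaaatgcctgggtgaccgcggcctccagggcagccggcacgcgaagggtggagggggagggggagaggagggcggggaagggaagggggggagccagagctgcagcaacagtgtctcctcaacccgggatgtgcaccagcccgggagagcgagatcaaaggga
Lhx3: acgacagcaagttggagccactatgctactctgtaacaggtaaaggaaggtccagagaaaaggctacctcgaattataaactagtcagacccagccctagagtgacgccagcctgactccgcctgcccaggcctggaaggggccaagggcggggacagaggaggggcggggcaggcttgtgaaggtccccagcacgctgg
Isl2: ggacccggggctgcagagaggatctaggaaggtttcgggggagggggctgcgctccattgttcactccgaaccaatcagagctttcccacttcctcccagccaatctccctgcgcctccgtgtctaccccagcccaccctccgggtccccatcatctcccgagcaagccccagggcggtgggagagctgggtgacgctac
Lmo1: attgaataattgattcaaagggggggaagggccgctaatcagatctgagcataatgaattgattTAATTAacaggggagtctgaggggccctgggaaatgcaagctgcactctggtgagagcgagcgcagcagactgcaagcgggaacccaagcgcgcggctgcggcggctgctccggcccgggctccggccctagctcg
The set of RefSeq windows used here covered 8 of the 10 genes, 14 windows in all, and had none for *Lmo2* and *Ldb2*. Over the 250 bases before the start, on both strands, TAATCC, the core bound by OTX2 and CRX, was in 0 of the 14 windows and in 6.25% of all 32851 windows. TAATTA was in 2 of the 14, the overlapping windows of a pair of *Lmo1* starts, and in 4.84% of all windows. CANNTG, the E-box of basic helix-loop-helix factors, was in 8 of the 14 and in 66.2% of all windows. The *Lhx4*, *Lhx3* and *Isl2* windows shown held none of the 3 motifs. The *Lhx4* and *Isl2* windows lie within the GENCODE genes, downstream of their annotated 5′ ends at 155751684 and 55538672. The motif counts are matches of letters in a short window and say nothing of binding elsewhere.

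The first question was which of these genes differ between the gates. Of the 10 genes, 7 were at least 2-fold higher in GFP+ than in GFP− cells, where 23.0% of all 15236 genes with at least 10 UMIs were, and 0 were at least 2-fold lower, where 16.8% of all genes were. The median log2 ratio of the 10 was 1.95, beside 0.30 for all genes. With the TMM factors of edgeR, which moved the median of all genes to -0.02, 6 were higher and 1 lower. *Lhx4* sequences drive the GFP that set the gates, so the difference in *Lhx4* is part of how the cells were chosen. The 10 genes were picked with earlier results of these data known, so the counts and medians describe this list only. Of 8 other LIM-HD genes, the 4 with at least 10 UMIs had a median log2 ratio of -0.378.

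*Lhx4* was at 139 CPM in the GFP+ library (2155 UMIs) and 1.66 CPM in the GFP− library (50 UMIs). In the GFP− library 34 of the 50 UMIs were in the 67 cone-like cells and 11 in the 136 *Otx2*/*Crx*/*Prdm1* cells, which left 5 UMIs for all other kept cells. The gate thus left cells with *Lhx4* on both sides, few of them in GFP−.

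*Lhx3*, the closest relative of *Lhx4*, had a GFP+ level of 43.0 CPM and a GFP− level of 1.86 CPM, a ratio of 23.1 (95% interval 17.6 to 30.9). *Isl2*, a factor known from motor neurons and RGCs, was at 71.6 and 5.55 CPM, a ratio of 12.9 (11.0 to 15.3). The 1055 GFP− cells over the gene limit, left out here, held 298 further *Isl2* UMIs (17.9 CPM). Counting them would lower the *Isl2* ratio. *Lhx9*, known from amacrine cell development, was at 1.16 and 1.89 CPM, from 18 and 57 UMIs, and its ratio of 0.613 had an interval that held 1 (0.340 to 1.06). The 4 LIM-HD genes thus split, with 3 far above the GFP− level and *Lhx9* near or below it.

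Among the LMO genes, *Lmo3* was at 11.2 CPM on the GFP+ side and 2.23 on the GFP− side, a ratio of 5.01 (3.76 to 6.75). *Lmo4*, the LMO gene with the widest known expression in the developing nervous system, was at 132 and 60.2 CPM, a ratio of 2.20 (2.06 to 2.34), and at 1.75 with TMM factors. *Lmo1* was at 42.2 and 41.3 CPM, a ratio of 1.02 (0.930 to 1.13). *Lmo2*, known for its part in blood and endothelium, was at 13.9 and 4.62 CPM, a ratio of 3.02 (2.43 to 3.76). The *Lmo2* ratio turned to 0.562 when the limit of 3500 genes was lifted, because *Lmo2* was at 59.6 CPM in the 1055 GFP− cells over that limit, so its direction between the gates depends on which cells are counted.

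Of the LDB genes, *Ldb2* was at 47.8 CPM on the GFP+ and 8.94 CPM on the GFP− side, a ratio of 5.35 (4.64 to 6.17). *Ldb1* was at 80.0 and 60.1 CPM, a ratio of 1.33 (1.24 to 1.43), and at 1.06 with TMM factors. Of the pair, *Ldb2* was past 2-fold and *Ldb1*, known as the more widely expressed LDB gene, was not.

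**Figure D1:**
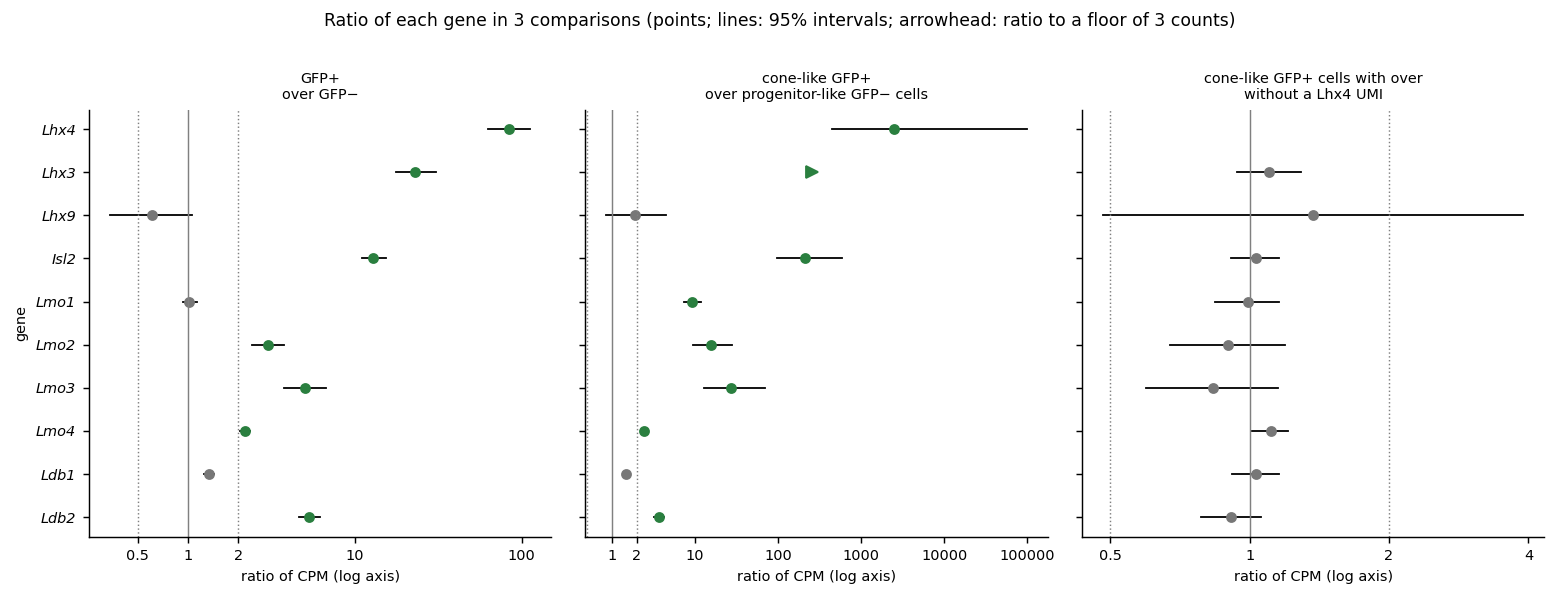
Ratio of CPM for each gene (log axis) in 3 comparisons, with the point as the ratio, the line as its 95% interval for counting error and the arrowhead as the ratio to a floor of 3 counts where the second group had 0 UMIs; dotted lines stand at 2-fold and green points are at or past it. Between the gates 7 genes lie at or past 2-fold higher, where 23.0% of all genes do. Between cone-like and progenitor-like cells 8 do, where 29.2% of all genes do. By a *Lhx4* UMI within cone-like cells 0 of 9 do, where only 1.20% of all genes do.

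The gates differ in their mix of cells, so the same genes were compared between cone-like GFP+ cells and progenitor-like GFP− cells, the largest class of each library. Here 8 of the 10 were at least 2-fold higher in cone-like cells, where 29.2% of all 14585 genes were, and 0 were at least 2-fold lower, where 15.9% were. The median log2 ratio was 3.57, beside 0.41 for all genes. Of the 10, *Lhx9* and *Ldb1* were not past 2-fold. With TMM factors, which moved the median of all genes to 0.03, the count was 7, since *Lmo4* was then at a ratio of 1.88.

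*Lhx4* was at 143 CPM in cone-like GFP+ cells and had 1 UMI in 17500430 UMIs of progenitor-like cells. *Lhx3* was at 44.4 CPM and had 0 UMIs in progenitor-like cells, which allows up to 0.171 CPM (3 counts) and makes it at least 259-fold higher in cone-like cells against that floor. The exact interval of the ratio, which also counts the error of the cone-like level, starts at 209.9. *Isl2* was at 73.4 CPM against 0.343 CPM, a ratio of 214 (98.0 to 585). *Lhx9* was at 1.20 and 0.629 CPM, a ratio of 1.92 (0.857 to 4.49). A *Lhx9* UMI was in 0.472% of cone-like GFP+ and 0.528% of progenitor-like cells, at median depths of 3881 and 9321 UMIs. After each cell was thinned to 3200 UMIs the shares were 0.427% (0.228 to 0.729) and 0.159% (0.0329 to 0.465), with overlapping intervals, so a *Lhx9* difference was not detectable at this depth.

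All 4 LMO genes were higher in cone-like cells. *Lmo3* was at 11.0 against 0.400 CPM (ratio 27.4, 13.0 to 69.3) and *Lmo2* at 14.4 against 0.914 CPM (ratio 15.7, 9.47 to 28.0). *Lmo1* was at 42.3 against 4.57 CPM, a ratio of 9.25 (7.32 to 11.8), although it had not differed between the gates. *Lmo4* was at 134 against 54.9 CPM, a ratio of 2.43 (2.25 to 2.63). *Ldb2* was at 49.2 against 13.3 CPM (ratio 3.70, 3.19 to 4.30) and *Ldb1* at 79.6 against 53.8 CPM (ratio 1.48, 1.36 to 1.61).

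**Figure D2:**
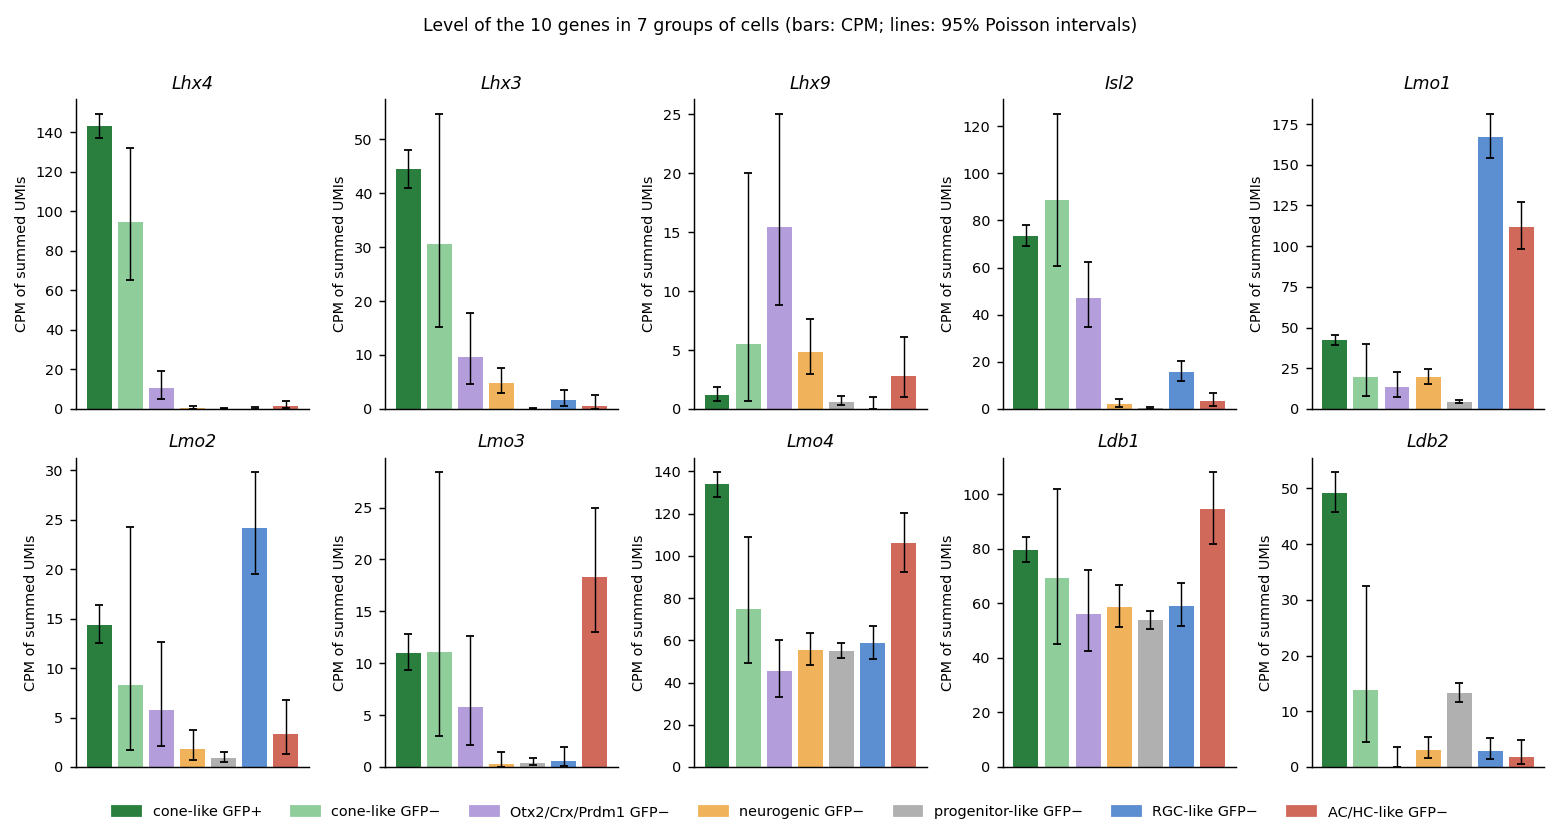
CPM of each gene (bars, linear axis from 0 in each panel) in cone-like GFP+ cells and in 6 classes of GFP− cells, with 95% Poisson intervals as lines. *Lhx4*, *Lhx3* and *Isl2* stand highest in both cone-like groups, *Lhx9* in *Otx2*/*Crx*/*Prdm1* cells, *Lmo1* and *Lmo2* in RGC-like cells, *Lmo3* in AC/HC-like cells and *Ldb2* in cone-like GFP+ cells.

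Levels were next compared across 7 groups, which are the classes with at least 50 cells in a library. The 124 GFP− cells of no class, with 0 *Lhx4* UMIs, were not among them. *Lhx4* fell from 143 CPM (137 to 149) in cone-like GFP+ cells to 94.3 CPM (65.3 to 132) in cone-like GFP− cells. In *Otx2*/*Crx*/*Prdm1* GFP− cells it was at 10.6 CPM (5.29 to 19.0). AC/HC-like cells had 1.41 CPM from 3 UMIs, neurogenic-progenitor-like and progenitor-like cells had 1 UMI each, and RGC-like cells had 0. The 40 *Otx2*/*Crx*/*Prdm1* cells of the GFP+ gate were at 65.5 CPM (35.8 to 109.8), 6.17 times those that met the same rule in the GFP− gate (2.60 for the lower bound), in a class split by the gate that *Lhx4* sequences set. The GFP+ ones held 472 CPM of the 6 cone markers and 603 CPM of the 4 neurogenic markers, the GFP− ones 53.0 and 2402 CPM, and the part of these in the *Lhx4* difference was not tested. A *Lhx4* UMI was in 41.3% of cone-like GFP+ and 37.3% of cone-like GFP− cells, and in 35.2% and 21.3% after the same thinning. In progenitor-like cells the share was 0.0528% in the GFP− library and 5.26% (1 of 19 cells, 0.133 to 26.0) in the GFP+ library, where they held 75.1 CPM of cone markers against 4.23 CPM in GFP−. The 12 AC/HC-like, 6 neurogenic-progenitor-like and 3 RGC-like GFP+ cells had 0 *Lhx4* UMIs. Free *Lhx4* RNA in the GFP+ library is thus limited only loosely, by few cells.

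*Lhx3* followed the same order, with 44.4 CPM (41.0 to 47.9) in cone-like GFP+, 30.5 (15.2 to 54.6) in cone-like GFP− and 9.64 (4.62 to 17.7) in *Otx2*/*Crx*/*Prdm1* GFP− cells. The intervals of the 2 cone-like groups overlapped. It differed from *Lhx4* in neurogenic-progenitor-like cells, where *Lhx3* had 19 UMIs in 15 of 460 cells (4.87 CPM, 2.93 to 7.61) and *Lhx4* had 1 UMI. Of those 15 cells, 14 had an *Otx2* UMI, against 50.3% of the 445 cells of the class without *Lhx3*. *Crx* and *Prdm1* UMIs were in 0 of the 15 (0 to 21.8% for each), and in 11 and 19 of the 445. Cells with at least 3 UMIs over at least 2 of *Otx2*, *Crx* and *Prdm1* are by rule outside this class. UMIs of *Neurog2* and *Atoh7*, both markers of this class, were in all 15 and each in 84.5% of the other 445. That share is above the lower limit of 78.2% for the 15. The 9 transcription factors looked at in these cells were chosen after the levels were seen. Thinned to 3200 UMIs, 0.661% of the class had a *Lhx3* UMI and 0 of 1883 progenitor-like cells did. The 124 GFP− cells of no class had 9 *Lhx3* UMIs in 4 cells (9.07 CPM, 4.15 to 17.2), beside 1.86 CPM over all kept GFP− cells.

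*Lhx9* had its highest level outside the cones, with 15.4 CPM (8.82 for the lower bound) in *Otx2*/*Crx*/*Prdm1* GFP− cells, from 16 UMIs in 12 of 136 cells. Neurogenic-progenitor-like cells had 4.87 CPM (2.93 to 7.61), AC/HC-like cells 2.82 (1.03 to 6.13) and cone-like GFP+ cells 1.20 (0.714 to 1.90). Cone-like GFP+ cells were lower in *Lhx9* than *Otx2*/*Crx*/*Prdm1* GFP− cells by a ratio of 0.0781. In neurogenic-progenitor-like cells, 14 of the 17 cells with *Lhx9* had an *Otx2* UMI (82.4%, 56.6 to 96.2), against 50.6% of the 443 without (45.8 to 55.3). A *Crx* UMI was in 1 of the 17 and 10 of the 443, and a *Prdm1* UMI in 1 and 18. Between cone-like GFP+ and *Otx2*/*Crx*/*Prdm1* GFP− cells *Lhx9* and *Lhx4* had opposite orders: *Lhx4* was 13.5 times higher (7.53 for the lower bound) in cone-like GFP+ cells.

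*Isl2* was at 88.7 CPM (60.7 to 125) in cone-like GFP− cells, 73.4 (69.1 to 77.9) in cone-like GFP+ cells and 47.2 (34.9 to 62.5) in *Otx2*/*Crx*/*Prdm1* GFP− cells, and the first 2 did not differ beyond their intervals. RGC-like cells followed with 15.7 CPM (12.0 to 20.3). Neurogenic-progenitor-like cells were at 2.05 CPM. *Isl2* was thus 23.0 times higher (10.8 for the lower bound) in *Otx2*/*Crx*/*Prdm1* than in neurogenic-progenitor-like GFP− cells, while *Lhx3* differed between them by a ratio of 1.98 with an interval that held 1 (0.822 for the lower bound). Within the *Otx2*/*Crx*/*Prdm1* GFP− cells, 27 of 32 cells with an *Isl2* UMI had a *Crx* UMI, against 53 of 104 without. A *Neurog2* UMI was in 9 of the 32 and in 70 of the 104. *Crx* is a marker of this class, and these factors too were chosen after the levels were seen. In neurogenic-progenitor-like cells, 5 of 8 cells with *Isl2* had a *Ptf1a* UMI, against 37 of 452 without. A *Prdm1* UMI was in 3 of those 8 and 16 of the 452, an *Otx2* UMI in 3 and 235, and a *Crx* UMI in 1 and 10. The *Isl2* relative *Isl1*, known in RGCs and other early neurons, had 4 UMIs in cone-like GFP+ cells (0.268 CPM) and 979 CPM in RGC-like cells.

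Among the 7 groups *Lmo1* was highest in RGC-like cells at 167 CPM (154 to 181), then at 112 (98.0 to 127) in AC/HC-like cells. Cone-like GFP+ cells were at 42.3 CPM (39.1 to 45.7). The GFP− cells of no class, outside these groups, were at 133 CPM (111 to 158). RGC-like cells held 50.5% of its GFP− UMIs. Neurogenic-progenitor-like cells, at 19.5 CPM, were 4.26 times above progenitor-like cells (3.07 for the lower bound). Among the groups of at least 50 cells *Lmo2* was also highest in RGC-like cells at 24.2 CPM (19.5 to 29.8), from 33 of 349 cells, with cone-like GFP+ cells at 14.4 (12.5 to 16.4). The thinned shares of cells with *Lmo2*, 5.16% (3.09 to 8.03) and 4.27% (3.58 to 5.05), overlapped. Of the known blood partners of LMO2, *Tcf12* and *Tcf3* had 2299 and 1245 UMIs in cone-like GFP+ cells. The other listed partners had at most 7 UMIs each there. In the same cells 4 of the 7 vascular or blood markers had UMIs, 7.43 CPM in sum, and in RGC-like cells 4 of 7 had, 13.1 CPM in sum. Macrophage markers were at 27.4 CPM in cone-like GFP+ cells, nearly all *C1qa* with *C1qb*, *Csf1r* and *Fcer1g* at 0, and at 0.229 CPM in progenitor-like GFP− cells. The 3 macrophage-like GFP− cells had *Lmo2* at 212 CPM (69.0 to 496) from 5 UMIs. The part of the vascular, blood and macrophage markers in the *Lmo2* levels was not tested.

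Among the 7 groups *Lmo3* was highest in AC/HC-like cells at 18.3 CPM (13.0 for the lower bound), then at 11.1 in cone-like GFP− and 11.0 in cone-like GFP+ cells. The 22 AC/HC-like cells without a *Ptf1a* UMI were at 71.4 CPM (35.6 to 128) and the 282 with one at 14.2 CPM (9.42 to 20.5), 5.03 times lower (2.26 to 10.4). AC/HC-like cells also held UMIs of 4 of the 7 vascular or blood markers, 303 CPM in sum. *Cldn5*, in that marker list, was itself among the leading genes of the AC/HC-like class. The part of these markers in the *Lmo3* and *Lmo1* levels was not tested. *Lmo4* was at 134 CPM in cone-like GFP+ cells and 106 in AC/HC-like cells, and between 45.3 and 74.9 CPM in the rest of the 7 groups. Across the same groups *Ldb1* had the smallest ratio of highest to lowest level, from 53.8 CPM in progenitor-like to 94.4 CPM in AC/HC-like cells. *Ldb2* was at 49.2 CPM in cone-like GFP+ cells, 13.9 in cone-like GFP− cells and 13.3 in progenitor-like cells, and had 0 UMIs in the 136 *Otx2*/*Crx*/*Prdm1* GFP− cells, which allows up to 2.89 CPM (3 counts). Neurogenic-progenitor-like cells were at 3.08 CPM. Cone-like GFP− cells (4.50 to 32.4) and progenitor-like cells (11.7 to 15.1) did not differ in *Ldb2* beyond their intervals.

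The cone-like cells of the GFP− gate allow a comparison within a class. *Lhx4* sequences set the gate that splits this class, so its *Lhx4* difference is part of how the cells were chosen. Cone-like GFP+ cells were higher than cone-like GFP− cells in *Lhx4* (ratio 1.52, 1.08 for the lower bound), *Lmo1* (2.18, 1.05), *Lmo4* (1.78, 1.22) and *Ldb2* (3.55, 1.52). The *Lhx3* ratio was 1.45, that of *Ldb1* 1.15 and that of *Isl2* 0.827, each with an interval that held 1. So did the intervals of *Lmo2* (ratio 1.73), *Lmo3* (0.989) and *Lhx9* (0.217, from 18 and 2 UMIs). The 67 cells had 261 CPM of progenitor markers and 477 CPM of neurogenic markers, against 35.6 and 227 CPM in cone-like GFP+ cells, and the part of those cells or of free RNA in the differences was not tested.

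Co-detection asked whether cones with *Lhx4* hold more of the other genes. Cells were thinned to 3200 UMIs, which left 3043 cone-like GFP+ cells, 1071 of them with a *Lhx4* UMI. *Lhx3* was in 12.9% of cells with *Lhx4* (10.9 to 15.0) and 12.3% of cells without (10.9 to 13.8). *Isl2* was in 20.1% (17.7 to 22.6) and 18.6% (16.9 to 20.4). *Lmo4* was in 32.6% and 30.6%, *Ldb1* in 21.6% and 22.6%, and *Ldb2* in 14.0% and 12.8%. The 138 cells with both *Lhx4* and *Lhx3* compare with 134 if detection were independent, and the 215 with both *Lhx4* and *Isl2* with 205. *Lmo3* was in 2.05% (1.29 to 3.09) of cells with *Lhx4* and 3.19% (2.46 to 4.07) of cells without, 22 cells with both against 29.9 if independent. For each of the 9 genes the intervals of the 2 shares overlapped.

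By summed UMIs the same holds. Of the 9 genes, 0 were past 2-fold either way between the 1488 cone-like GFP+ cells with and the 2115 without a *Lhx4* UMI, where 1.20% of all genes were at least 2-fold higher and 1.83% at least 2-fold lower. *Lmo4* was at 142 and 128 CPM, a ratio of 1.11 (1.01 to 1.21), and the other 8 intervals held 1. A cone-like cell with no *Lhx4* UMI is not a cell without *Lhx4* RNA: of 3603 cells, 1012 had 1 *Lhx4* UMI and 476 had 2 or more, and the shares move with depth.

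**Figure D3:**
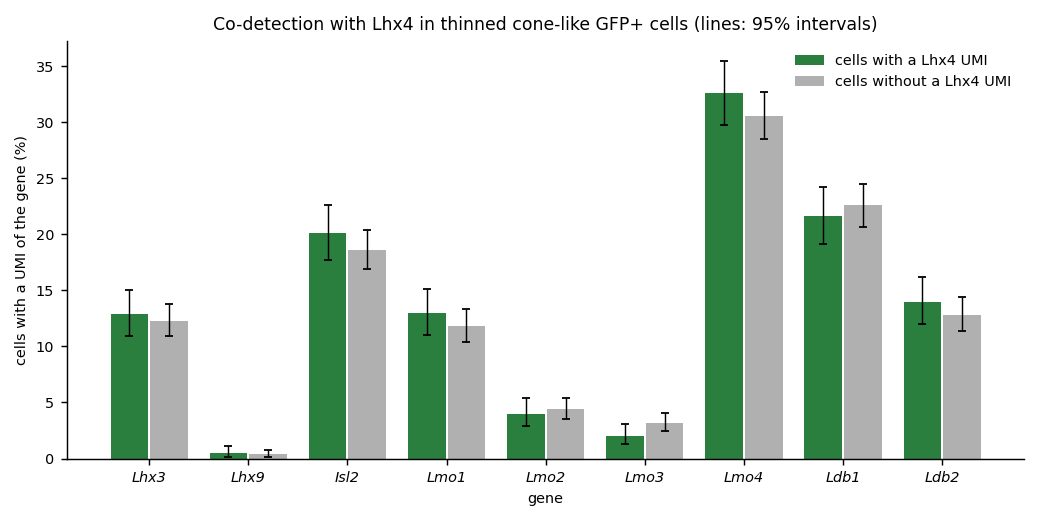
Share of cone-like GFP+ cells with a UMI of each gene (y axis, percent), for the 1071 thinned cells with a *Lhx4* UMI (green) and the 1972 without (grey), with 95% Clopper-Pearson intervals as lines. The intervals of each pair overlap, as with 12.9% and 12.3% for *Lhx3* and 2.05% and 3.19% for *Lmo3*.

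Detection was sparse for all of them. Of the 3043 thinned cells, 548 had a UMI of none of the 10 genes and 1060 of 1 gene. At least 1 of *Lhx4*, *Lhx3* and *Isl2* was seen in 53.5% of cells and all 3 in 28 cells. Among the other pairs, *Lmo3* and *Ldb2* met in 2 cells where 11.3 would do so if independent, and *Lhx3* and *Lmo3* in 4 cells against 10.6. *Lmo2* and *Ldb2* met in 28 cells against 17.2. These pairs were picked from all 45 for their distance from independence, so they are descriptions.

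Cone-like GFP+ cells were next ranked by their cone marker UMIs after thinning and split at the quartiles into 4 bins, from 0 to 10 marker UMIs in bin 1 (913 cells) to 19 to 43 in bin 4 (680 cells). *Lmo3* was lower in each bin than in the one before, with 23.6, 10.8, 4.13 and 3.32 CPM, and was 7.11 times lower (3.61 to 16.0) in bin 4 than in bin 1. *Ldb2* went the other way, with 29.6, 49.6, 56.7 and 62.3 CPM, a ratio of bin 1 to bin 4 of 0.475 (0.376 to 0.600). *Lhx4* had 113, 146, 165 and 157 CPM, a ratio of bin 4 to bin 1 of 1.39 (1.22 to 1.59), *Isl2* a ratio of 1.36 (1.15 to 1.62) and *Lmo4* one of 1.24 (1.08 to 1.41). For *Lhx3*, *Lhx9*, *Lmo1*, *Lmo2* and *Ldb1* the interval held 1. Median depth before thinning was 4595 UMIs in bin 1 and 3771 in bin 4.

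**Figure D4:**
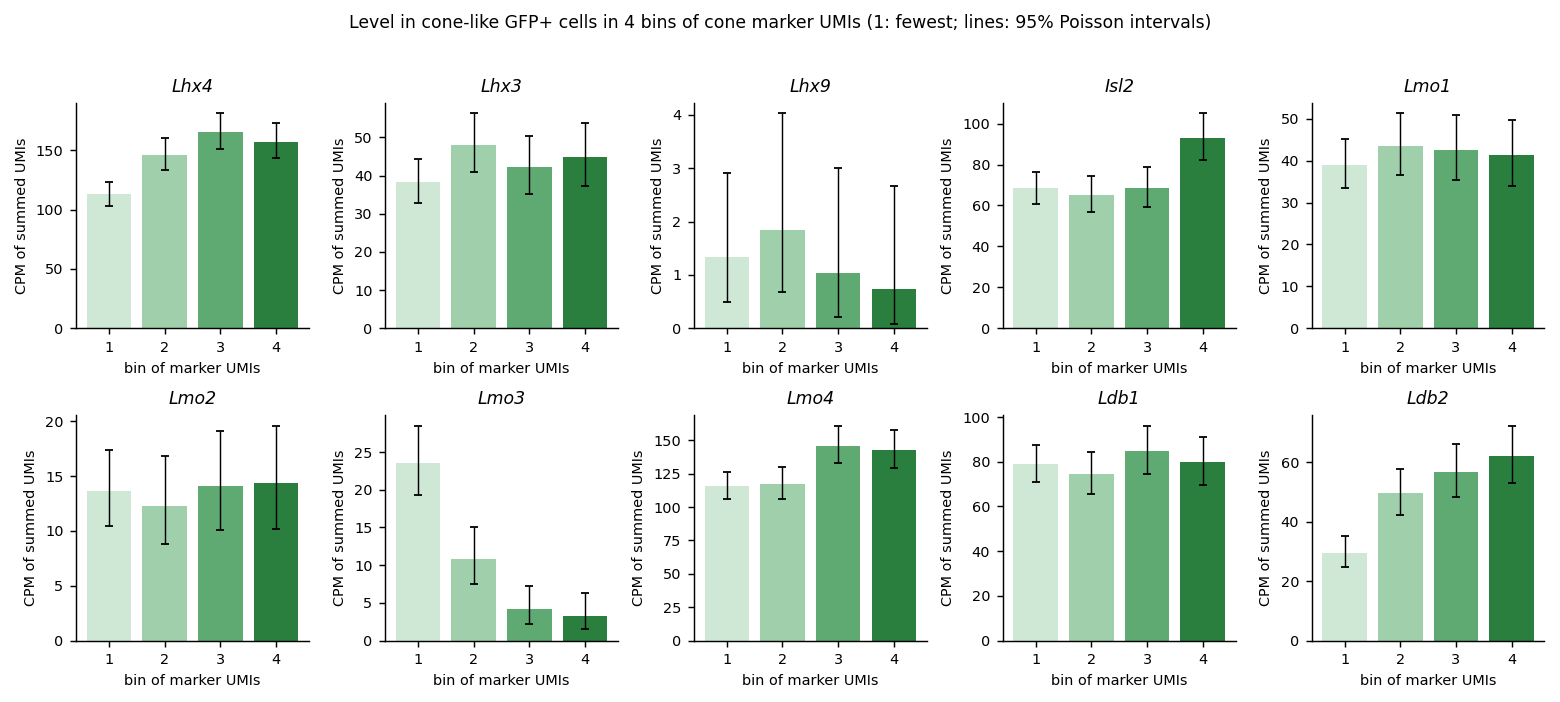
CPM of each gene (bars, with 95% Poisson intervals) in the 4 bins of cone-like GFP+ cells by cone marker UMIs, bin 1 holding the fewest. *Lmo3* goes from 23.6 to 3.32 CPM and *Ldb2* from 29.6 to 62.3 CPM, while *Ldb1* stays between 74.6 and 84.9 CPM.

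The cones were also split by single genes. *Fabp7* codes for a fatty acid binding protein of neural progenitors, and the paper also names it as a known marker of adult mouse cones. In the 1473 cone-like GFP+ cells with a *Fabp7* UMI, *Ldb2* was at 31.1 CPM against 63.7 CPM in the 2130 cells without. It was 2.05 times lower (1.74 to 2.42) with *Fabp7*. *Lmo3* was at 14.3 against 8.29 CPM, a ratio of 1.73 (1.26 to 2.39). *Ldb2* and *Lmo3* thus differed in opposite directions in this split of the same cells and UMIs as the bins, which is no separate evidence. In the 391 cells with a UMI of *Pcp4*, a calmodulin-binding protein, *Ldb2* was at 71.3 against 46.6 CPM (ratio 1.53, 1.24 to 1.87) and *Isl2* at 49.2 against 76.4 CPM, 1.55 times lower (1.24 to 1.98). In the 181 cells with a UMI of *Slc7a3*, a cationic amino acid transporter, *Lmo1* was at 87.9 against 39.8 CPM (ratio 2.21, 1.70 to 2.84) and *Ldb2* at 78.9 against 47.6 CPM (ratio 1.66, 1.26 to 2.15). In the 154 cells with a UMI of *Opn1sw*, the S-opsin gene, *Lhx3* was at 65.1 against 43.4 CPM (ratio of cells without to cells with *Opn1sw* 0.667, 0.486 to 0.939) and *Lmo4* at 176 against 132 CPM (ratio 1.34, 1.10 to 1.62). *Lhx4* was at 143 CPM on both sides of the *Opn1sw* split, and at 133 against 151 CPM in cells with and without *Fabp7* (ratio 0.881, 0.808 to 0.961). In the *Fabp7* split the intervals of *Isl2* (ratio 1.16), *Lmo1* (0.817) and *Lmo2* (0.701) also left out 1. All ratios not given for these splits had an interval that held 1, so most of those named were picked for their distance from 1.

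RGC-like GFP− cells were split by *Atoh7*, which is expressed as RGCs are born and then declines. In the 161 cells with an *Atoh7* UMI *Isl2* was at 4.08 CPM (1.64 to 8.40), and in the 188 without it was at 25.5 CPM (19.1 to 33.5), so it was 6.27 times lower (2.83 to 16.3) with *Atoh7*. *Lmo2* was at 5.82 and 39.8 CPM, 6.83 times lower (3.53 to 14.8). These levels came from 10 UMIs in 8 of the 161 cells (4.97%) and 81 UMIs in 25 of the 188 (13.3%). The interval does not cover the spread of UMIs between cells. *Lmo1* went the other way, at 221 and 122 CPM, a ratio of 1.81 (1.54 to 2.14), as did *Ldb1*, at 69.9 and 50.1 CPM, a ratio of 1.39 (1.06 to 1.83). All 6 *Lhx3* UMIs of the class were in cells with *Atoh7*. Median depth was 11004 and 11480 UMIs.

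The RGC-like cells removed by the gene limit outnumbered those kept, with 548 against 349 cells, at median depths of 14981 and 11359 UMIs. This comparison was added after the levels were seen. In the 548 cells *Lmo2* was at 109 CPM (102 to 116), 4.51 times the level of the kept ones (3.63 to 5.65), and *Isl2* at 32.3 CPM, 2.06 times (1.55 to 2.77). *Lmo1* was at 90.8 CPM, 1.84 times lower (1.65 to 2.05). *Lhx4* had 0 UMIs in all 897 RGC-like cells. *Lmo2* UMIs were in 186 of the 548 cells.

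**Figure D5:**
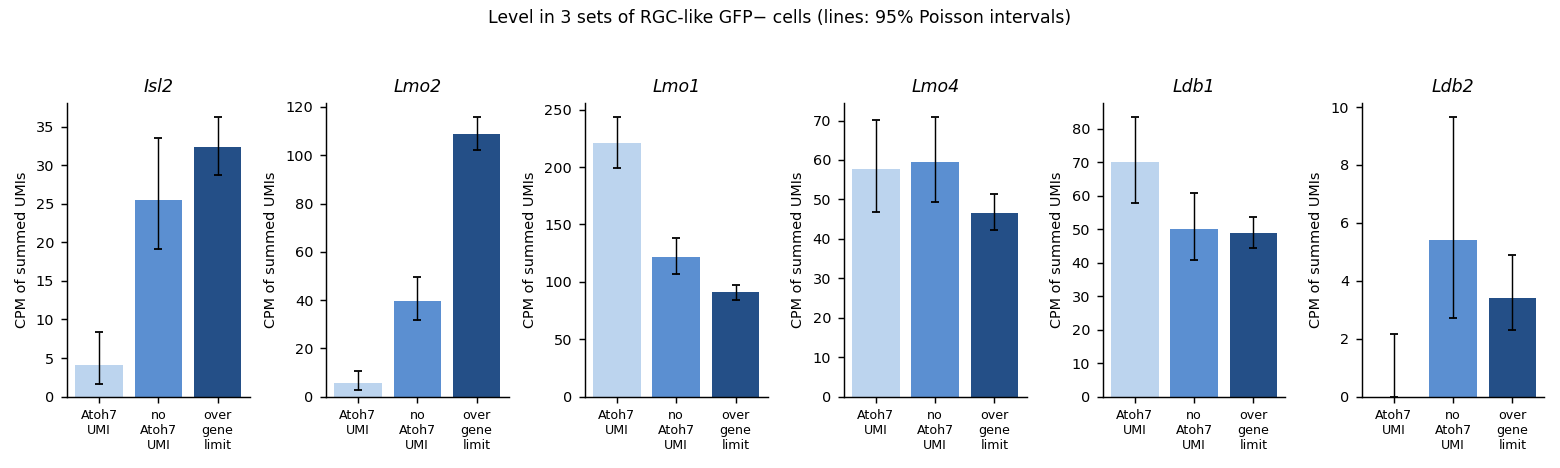
CPM of 6 genes (bars, with 95% Poisson intervals) in kept RGC-like GFP− cells with and without an *Atoh7* UMI and in RGC-like cells over the limit of 3500 genes. *Lmo2* goes from 5.82 to 39.8 and 109 CPM and *Isl2* from 4.08 to 25.5 and 32.3 CPM, while *Lmo1* goes from 221 to 122 and 90.8 CPM.

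Within progenitor-like GFP− cells, the 921 cells with at least 3 UMIs of *Top2a*, *Cenpf*, *Ube2c* and *Ccnb1*, genes of dividing cells, had *Lmo4* at 65.1 CPM against 44.0 CPM in the 499 cells with 0, a ratio of 1.48 (1.25 to 1.75). *Lmo1* was at 2.86 against 7.18 CPM, 2.51 times lower (1.44 to 4.42), and *Ldb2* at 11.2 against 16.0 CPM, 1.43 times lower (1.03 to 1.96). *Lhx4* and *Lhx3* had 0 UMIs on both sides.

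Of 18 other LIM-HD and LDB complex genes, 12 had at least 10 UMIs between the gates. In GFP+ cells 3 were at least 2-fold higher, near the 23.0% of all genes, and 4 at least 2-fold lower, where 16.8% of all genes were. Among the 4, *Lyl1* rests on 1 against 10 UMIs with an interval that held 1 (0.00447 to 1.36), and it is named here after its values were seen. Between cone-like and progenitor-like cells 11 had enough UMIs, 4 higher and 4 lower, beside 29.2% and 15.9% of all genes, and by a *Lhx4* UMI 0 of 9 were past 2-fold. Of the LIM-HD genes, *Lhx2*, a factor of retinal progenitors, was at 92.9 CPM in cone-like GFP+ and 297 in progenitor-like cells, 3.20 times lower. *Lhx5* was at 19.1 and 0.171 CPM and *Lhx1* at 4.82 and 0.0571 CPM, and both were also in AC/HC-like cells, at 24.9 and 29.1 CPM. Of the single-stranded DNA binding proteins that hold LDB proteins in place, *Ssbp3* was at 366 and 144 CPM (ratio 2.54), *Ssbp4* at 32.2 and 168 CPM (5.21 times lower) and *Ssbp2* at 159 and 112 CPM (ratio 1.42). *Rlim*, a ubiquitin ligase of LDB proteins, was at 32.9 and 26.3 CPM. Of the E proteins that join LMO2 complexes, *Tcf12* was at 154 and 60.0 CPM (ratio 2.56) and *Tcf3* at 83.3 and 192 CPM, 2.31 times lower.

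Genes with the most alike pattern were ranked by Pearson r of log2(CPM + 1) over the 7 groups, among 10542 genes with at least 200 UMIs. The groups share libraries and depth and are few, so r is a description. *Gnb3*, a cone marker used for the classes, was nearest to *Lhx4* (r = 0.995), followed by *Cog7* and *Lcorl* (0.994 each). For *Lhx3* these were *Cerkl* (0.994), *Ttyh2* (0.988) and *Lingo3* (0.986), for *Isl2* *Robo2* (0.976), *Mxd1* (0.975) and *Mtmr1* (0.973), and for *Lhx9* *Coil* (0.988), *Galnt18* (0.964) and *Zic5* (0.962). For *Lmo1* they were *Phactr1* (0.985), *D430019H16Rik* (0.984) and *Dbndd1* (0.980), for *Lmo2* *Rbfox3*, *Gm42469* (0.973 each) and *Tmem120b* (0.971), for *Lmo3* *Scnm1* (0.987), *Gm10605* (0.980) and *Pdcd2l* (0.973), and for *Lmo4* *BC003331*, *Mcoln1* (0.987 each) and *Dzip3* (0.984). For *Ldb1* they were *Dis3l2* (0.980), *Ankrd11* (0.979) and *Ispd* (0.976), and for *Ldb2* *Sesn2* (0.979), *Pgf* (0.978) and *Man1b1* (0.969). Among the 10 genes, *Lhx4* was nearest to *Lhx3* (0.911) and *Isl2* (0.852), and at -0.0770 with *Lmo1*.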

How the data were processed

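The authors deposited, for each of the GFP+ and GFP− libraries, raw UMI counts per gene and cell, written by Cell Ranger 2.1.1 against mm10 for the barcodes it called as cells, whole numbers that were not normalized. With no replicate the precision is that of counting, over 15503658 GFP+ and 30094636 GFP− UMIs in kept cells.

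Cells were kept at 250 or more and fewer than 3500 genes if mitochondrial UMIs made a fraction below 0.25, a limit the methods print as a percentage and that was read as a fraction. Marker rules set the classes. UMIs were summed and scaled to 1000000. Ratios had exact conditional binomial intervals (95%), and a gene was counted past 2-fold when it had at least 10 UMIs over both groups. A gene at 0 UMIs was bounded by 3 counts. For shares, each cell was drawn down to 3200 UMIs, which left out 560 of 3603 cone-like GFP+ cells. The 10 genes, the gene lists and the rules were chosen with earlier results of these data known. All 10 genes were named, with the listed complex genes that had at least 50 UMIs and, for each of the 10, the 3 genes of most alike pattern. Python 3.11.15, numpy 2.4.6, scipy 1.17.1, pandas 2.3.3 and edgeR 4.0.16 (TMM factors only) were used. Ratio intervals were tested on simulated counts with Poisson error only, which the intervals assume. That test cannot show how they cover spread between cells. Alternatives were other cell filters, scalings, thinning, thresholds and class rules. Sequences are from RefSeq and loci from GENCODE.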

Additional observations from a re-analysis of the deposited data

Results flagged for a closer look

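GFP− cells over the gene limit, which the comparisons leave out, or kept GFP− cells of no class carried some of the genes above the level of all kept GFP− cells. The cells of no class are counted in the comparison of the gates and left out of those between classes. For this, 3 of the genes were flagged. *Isl2* was at 17.9 CPM (15.9 for the lower bound) in the 1055 GFP− cells over the limit of 3500 genes and 5.55 CPM in the kept GFP− cells. *Lmo2* was at 59.6 CPM (55.9 to 63.4) in the same 1055 cells and 4.62 CPM in the kept ones, and 957 of its 994 UMIs there were in RGC-like cells. *Lmo1* was at 133 CPM (111 to 158) in the 124 kept GFP− cells that met no class rule and 41.3 CPM over all kept GFP− cells. Of these 124 cells 51 had a *Lmo1* UMI. *Lhx3* and *Ldb1* were not flagged, but their intervals in the 124 cells were also apart from those of all kept GFP− cells. *Lhx3* was at 9.07 CPM (4.15 to 17.2) against 1.86 (1.41 to 2.42). *Ldb1* was at 94.7 CPM (76.5 to 116) against 60.1 (57.4 to 63.0).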

How the results depend on the processing

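No paired analysis was possible because each gate is 1 library and no result comes from a test. Of 53 recomputed counts of genes past 2-fold, 49 were within 1.5 times the value reported. The other 4 were the count of the 10 genes lower in GFP+ than in GFP− cells, 0 as reported, which was 1 at a fold of 1.5, 1 with means of per-cell values, 1 with TMM factors and 2 with mean UMIs per cell, where depth is not scaled out and the median log2 ratio of all genes was -0.77. The gene in the settings with 1 was *Lhx9*, at 0.613, 0.488 and 0.489. The ratio of *Lmo2* between the gates turned from 3.02 to 0.562 without the upper limit on genes and to 0.562 with no filter on cells, since 994 of its UMIs were in GFP− cells over the limit. The direction of *Lmo1* and *Ldb1* between the gates changed with the scaling (*Lmo1* 1.02, or 0.816 with TMM factors and 0.484 as mean UMIs per cell; *Ldb1* 1.33, or 1.06 and 0.630). Depth limits the shares most, since a *Lhx4* UMI was in 41.3% of cone-like GFP+ cells before and 35.2% after thinning.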
